A study of Mus musculus with 30 samples.

Results

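The 9 transcripts described here encode the first components of activating signalling in natural killer (NK) cells, lymphocytes that kill without a rearranged receptor, and their levels were read across 30 libraries of sorted mouse NK cells. They are the adaptors Tyrobp (DAP12), Hcst (DAP10), Fcer1g (the Fc receptor gamma chain) and Cd247 (CD3 zeta), the low-affinity IgG receptor Fcgr3 (CD16), and the kinases Zap70, Syk, Lck and Fyn. They were chosen by symbol, 9 of the 30587 entries of the deposited expression table, and all 9 passed the filter on low values that left 16045 genes for testing. No rule on their levels was used to choose them, but earlier results of these data were known at the time.

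NKp46-GFP+ cells were sorted after skin grafting in 2 models, with 5 populations in each and 3 libraries per population. In the B6 model, C57BL/6 recipients of genotype NKp46iCre/iCre.RosamTmG/mTmG carried m157tg B2m-/- skin and were studied at day 20. In the F1 model, C57BL/6xBalb/c recipients of genotype NKp46+/iCre.Rosa+/mTmG carried m157tg B2m+/- skin and were studied at day 10. Blood, spleen and graft each gave CD49b+ cells, whereas CD49a+ cells were taken from the graft and the recipient's own skin. Every group carries the iCre insertion at the NKp46 locus and the mTmG reporter, and no ungrafted or reporter-free animals are among these groups. The models differ at once in strain, in the number of iCre, mTmG reporter and graft B2m copies and in day. These factors cannot be told apart. No ages are given for the animals, and nothing says whether libraries come from separate animals or pools, so the p-values measure only the spread between libraries.

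Most activating NK receptors have no signalling motif of their own and borrow one from a short partner chain in the membrane. In mouse, Tyrobp serves Ly49H and Ly49D, Fcer1g serves NKp46 and CD16, Cd247 also serves NKp46, and Hcst is a partner of NKG2D. Src family kinases, of which Lck and Fyn are members, phosphorylate paired tyrosines in the partner chain (the immunoreceptor tyrosine-based activation motif, ITAM), and Syk and Zap70 then dock there by paired SH2 domains. Hcst carries a different motif, which recruits phosphatidylinositol 3-kinase and Grb2.

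The coding bases of these docking motifs are shown because they are what separates the adaptors from one another. They were read from the transcripts of GENCODE M21 on GRCm38, 5′ to 3′ on the coding strand, and the capitals mark the codons of the tyrosines and of the leucine, isoleucine or methionine that follows each one. Each ITAM is split between 2 exons, so its coordinates include an intron.
Tyrobp ITAM, chr7:30415670-30417382, plus strand: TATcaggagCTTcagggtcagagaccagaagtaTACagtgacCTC
Fcer1g ITAM, chr1:171229889-171230072, minus strand: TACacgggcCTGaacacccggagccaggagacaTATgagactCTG
Cd247 ITAM 1, chr1:165856451-165857454, plus strand: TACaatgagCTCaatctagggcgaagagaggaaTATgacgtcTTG
Cd247 ITAM 2, chr1:165858473-165859260, plus strand: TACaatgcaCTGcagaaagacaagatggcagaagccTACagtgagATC
Cd247 ITAM 3, chr1:165859819-165861042, plus strand: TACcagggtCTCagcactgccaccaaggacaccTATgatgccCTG
Hcst motif with flanks, chr7:30417809-30417844, minus strand: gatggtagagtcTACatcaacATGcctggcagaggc
Tyrobp and Fcer1g each hold 1 ITAM, Cd247 holds 3, and Fcgr3 and the 4 kinases hold 0. The pattern searched was a tyrosine, 2 residues of any kind and a leucine or isoleucine, then the same again after 6 to 12 residues. It occurs in the translated frame of 1395 of 21538 coding genes (6.48%), so a match alone does not make a docking site. The motif of Hcst, a tyrosine, 2 residues of any kind and a methionine, occurs in 24.8% of coding genes.

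Tyrobp (ENSMUSG00000030579.10, chr7:30413760-30417585) and Hcst (ENSMUSG00000064109.8, chr7:30417712-30419854) lie tail to tail with 126 bases between them. Fcer1g (ENSMUSG00000058715.11, chr1:171229572-171234365) and Fcgr3 (ENSMUSG00000059498.13, chr1:171051174-171064935) lie 164636 bases apart on the same strand. Of the 9, 2 share sequence with another gene, and the authors' strand setting is not given in the sources read. Of the 31-base words of the Cd247 exons (ENSMUSG00000005763.15, chr1:165788681-165877277), 54.4% also occur in Pou2f1, a transcription factor gene that overlaps it on the other strand. Of those of Fcgr3, 13.4% occur in Fcgr2b, the inhibitory IgG receptor. The values of Cd247 and Fcgr3 are therefore uncertain, whereas the other 7 genes shared 0% to 0.0319%.

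The values are signals normalized by the authors with DESeq2, with neither counts nor read depth, so the counting error behind a value is unknown. They summed to between 1529124 and 5717946 per library, of which the 12 most abundant entries held 28.75% to 84.41%. The mean level of 20 pan-leukocyte transcripts in the skin libraries ran from 7.17% to 80.8% of that in the 12 circulating (blood and spleen) libraries. Library 2 of each B6 skin population was the richest in them, at 80.8% in graft CD49b+, 66.9% in graft CD49a+ and 70.3% in recipient skin, against 7.17% to 44.7% in the other 6 B6 skin libraries. In 8 skin libraries the level was more than 2 log2 units below the circulating mean: libraries 1 and 3 of B6 graft CD49a+ and of B6 recipient skin, library 3 of F1 graft CD49a+ and all 3 of F1 recipient skin. In bulk samples, fewer cells of a type and less RNA per cell cannot be told apart. Each of 12 NK cell markers was above 0 in at least 1 library of every group, and their summed signal was 13254 to 16613 in blood and spleen libraries and 302 to 15932 in skin. A second scale, called the leukocyte scale here, shifts each library so that the 20 transcripts have the same mean level. The shift was made after log2(signal + 1), so values at or near 0 are raised in libraries poor in leukocyte transcripts. In the 8 poorest libraries the lowest Fcgr3 value was 0 on the deposited scale and 9.44 on this one. The all-gene medians and shares given on this scale include genes with such values.

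In circulating NK cells, Tyrobp and Fcer1g had the highest levels of the 9 per length. Per kilobase of annotated exon, the median signal over the 12 circulating libraries was 1792 for Tyrobp, with a range of 1390 to 2222, and 1107 for Fcer1g, with a range of 900 to 1422. Their ranges overlapped narrowly. Lck followed with a median of 281 and Hcst with 250.2, and the 2 overlapped. Zap70 had a median of 51.8 and Fcgr3 of 44.1 per kilobase, overlapping again. Cd247 stood at 28.6, Fyn at 25.2 and Syk at 9.56, and Syk lay below the other 8 in its whole range of 6.58 to 12.6. On this per-length scale the Syk family pair thus differed in level, with Zap70 above Syk, and so did the Src family pair, with Lck above Fyn.

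No difference between spleen and blood NK cells was called for any of the 9. In limma fits over all 30 libraries with Benjamini-Hochberg adjustment over 16045 genes, 0 of 9 were called in spleen against blood in either model (background 0.00623% of all genes tested in each), and 0 had an unadjusted p under 0.05. In B6 the log2 changes ran from -0.41 to 0.05. Those in F1 had -1.48 as their lowest and 0.13 as their highest value. The -1.48 belonged to Cd247, which was at 146, 157 and 2763 in F1 blood and at 149, 147 and 130.2 in F1 spleen. Library 3 of F1 blood thus stood far above the other 5, and Pou2f1 was at 33.01 in it against 17.6 and 18.01 in the other two. Tyrobp was at 927, Zap70 at 112 and Lck at 688 in the same library, none of them above the other 2 F1 blood libraries. Between F1 and B6 circulating cells there were also 0 of 9 called (background 0.343%), 0 at an unadjusted p under 0.05 and log2 differences from -0.41 for Syk to 0.53 for Cd247.

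Skin NK cells had lower signals than spleen NK cells for most of the 9, and more of the falls were called in CD49a+ than in CD49b+ cells. In CD49a+ cells of the recipient's own skin, 8 of 9 fell in B6, where 11% of all genes tested were called lower, and 7 of 9 fell in F1, where 4.44% were. In graft CD49a+ cells, 5 of 9 fell in B6 (background 3.77% lower) and 4 of 9 in F1 (background 4.18%). In graft CD49b+ cells, 0 of 9 were called in B6 (background 0.368% lower, 0 of 9 at an unadjusted p under 0.05) and 1 of 9 fell in F1 (background 1.61%), and that one was Lck. None of the 9 rose in these 6 comparisons, in which 3.7%, 12.5% and 17.9% of all genes tested were called higher in B6 graft CD49b+, graft CD49a+ and recipient skin and 10.6%, 18.5% and 11.3% in F1. The median log2 changes of the 9 were -1.09, -2.71 and -2.80 in B6 graft CD49b+, graft CD49a+ and recipient skin, beside 0.33, 0.44 and 0.40 over all genes tested. In F1 they were -1.32, -1.79 and -3.07, beside 0.26, 0.39 and 0.35. The 3 comparisons of a model share their spleen libraries.

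**Figure D1:**
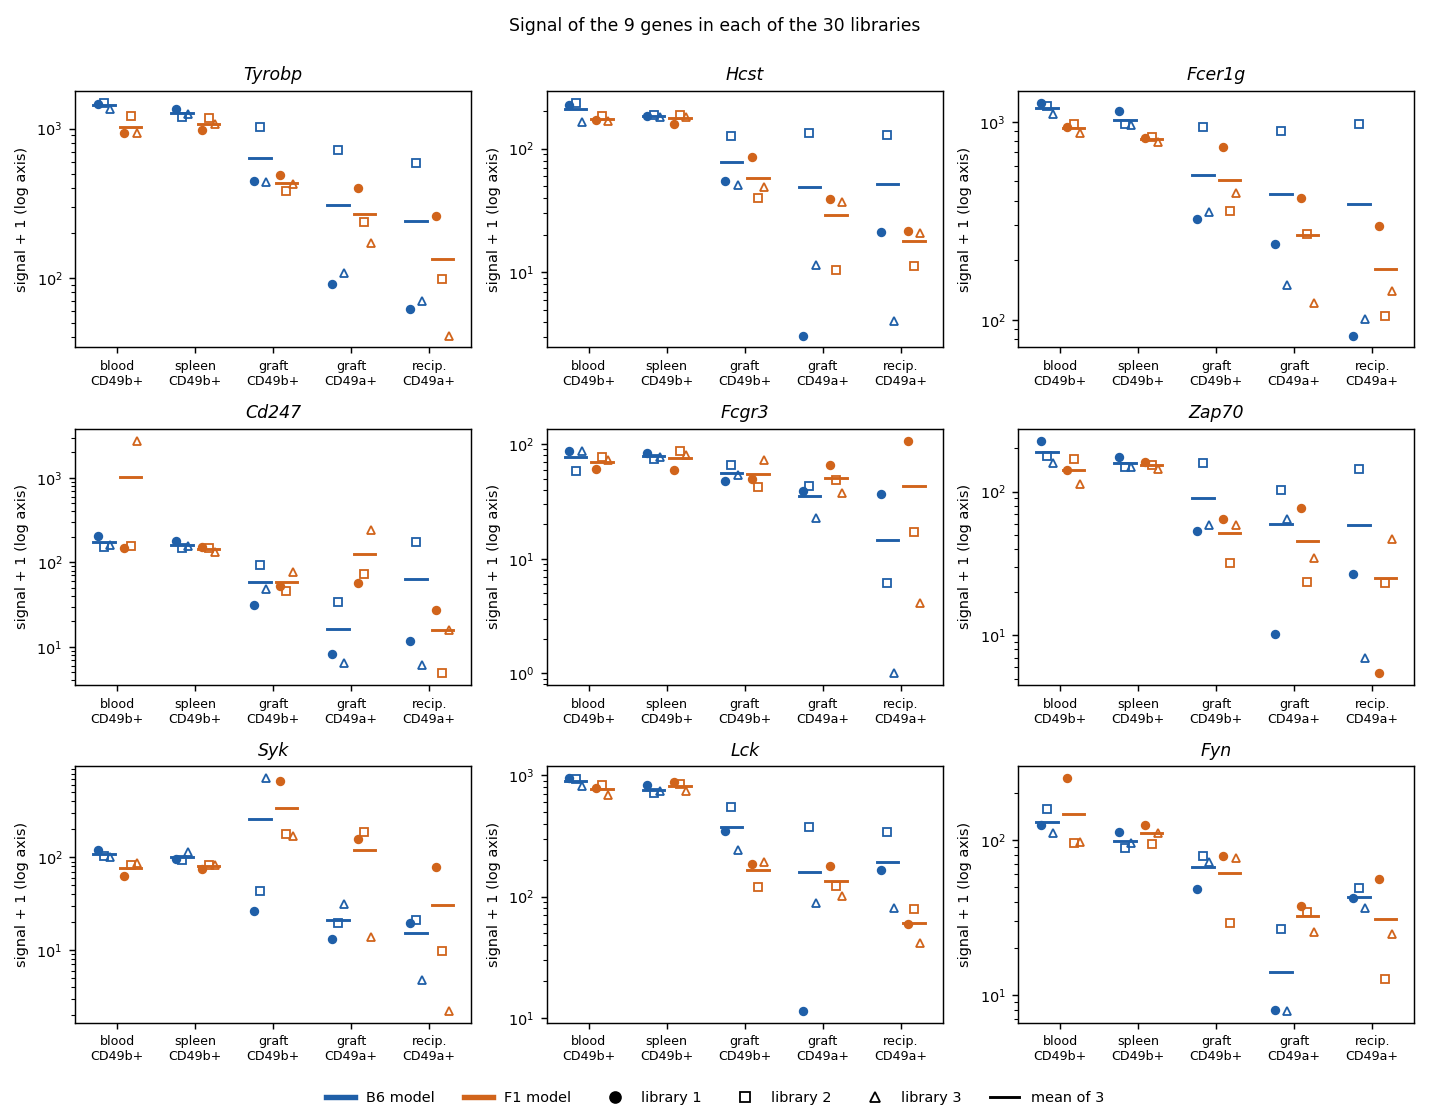
Signal plus 1 (log axis) of each of the 9 genes in every library, by population, with B6 in blue and F1 in orange, symbols for library number and bars for the mean of 3. Skin libraries lie below blood and spleen for most genes, library 2 of B6 skin (open squares) stays near spleen for several, and Syk lies above spleen in 4 graft CD49b+ libraries.

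Tyrobp, the partner of the Ly49 activating receptors, fell in CD49a+ cells of both sites and models. Its signal was 1459, 1482 and 1346 in the 3 B6 blood libraries and 1349, 1185 and 1249 in B6 spleen. It was 447, 1022 and 435 in B6 graft CD49b+ cells, 90.5, 716 and 108 in graft CD49a+ cells and 60.8, 585 and 69.0 in recipient skin. All 9 B6 skin libraries lay below all 6 circulating ones, and library 2 was the highest in each skin population. In F1, Tyrobp was at 927, 1206 and 927 in blood, 974, 1172 and 1072 in spleen, and 485, 383 and 421 in graft CD49b+ cells. F1 graft CD49a+ cells had 401, 234 and 171, and recipient skin had 259, 97.9 and 40.0, again with no overlap with the circulating libraries. Against spleen, Tyrobp fell 9.24-fold in B6 recipient skin (log2 -3.21 ± 0.72, SE, adjusted p = 0.00262, limma) and 10.5-fold in F1 (-3.40 ± 0.72, 0.00291). In graft CD49a+ cells it fell 6.55-fold in B6 (adjusted p = 0.013, limma) and 4.23-fold in F1 (0.0374). Leaving out library 1 or 3 of B6 graft CD49a+ ended the first of these 2 calls (adjusted p = 0.089 and 0.0828), and leaving out any of the F1 libraries but graft CD49a+ library 1 ended the second (0.0761 to 0.144).

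Hcst, an NKG2D partner that neighbours Tyrobp, fell in the same 4 comparisons. It lay between 158 and 233 in the 12 circulating libraries. In B6 it was at 53.9, 125 and 49.98 in graft CD49b+ cells, 2.08, 132 and 10.4 in graft CD49a+ cells and 20.1, 128 and 3.03 in recipient skin. Library 2 was again far above the other 2 of its group, and every skin library was below every circulating library of its model. In F1, Hcst was at 84.3, 39.2 and 48.2 in graft CD49b+ cells, 38.4, 9.53 and 35.9 in graft CD49a+ cells and 20.6, 10.3 and 19.6 in recipient skin. It fell 10.9-fold and 7.04-fold in graft CD49a+ cells of B6 and F1 (adjusted p = 0.0155 and 0.0324, limma), and 8.22-fold and 10.2-fold in recipient skin (0.0188 and 0.0176). With library 1 or 3 of B6 graft CD49a+ left out, that call was lost (0.138 and 0.0742). The other 3 calls of Hcst were each lost when any of at least 3 libraries was left out, with adjusted p up to 0.141 in F1 graft CD49a+ cells, 0.173 in B6 recipient skin and 0.0786 in F1 recipient skin.

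Fcer1g, the gamma chain that CD16 and NKp46 share, fell in recipient skin. It was at 963 to 1243 in the 6 B6 circulating libraries, and at 322, 945 and 350 in B6 graft CD49b+ cells. B6 graft CD49a+ cells had 241, 901 and 149, and recipient skin had 82.4, 971 and 101. Library 2 of recipient skin reached the range of spleen, at 963 to 1137, and the other B6 skin libraries lay below it. In F1, Fcer1g was at 787 to 974 in circulating libraries, 741, 355 and 434 in graft CD49b+ cells, 412, 271 and 120 in graft CD49a+ cells and 298, 103 and 139 in recipient skin, with no overlap. Fcer1g fell 5.06-fold in B6 recipient skin (log2 -2.34 ± 0.70, adjusted p = 0.0151, limma) and 4.98-fold in F1 (-2.32 ± 0.70, 0.0246). The first call was lost without library 1 or 3 of B6 recipient skin (0.112 and 0.0937), and the second without any of the F1 spleen libraries or library 2 of F1 recipient skin (0.0643 to 0.112). In graft CD49a+ cells the log2 values were -1.68 in B6 (adjusted p = 0.0938) and -1.77 in F1 (0.0647). Within a library, the log2 ratio of Fcer1g to Tyrobp was -0.38 to -0.23 in B6 circulating libraries and 0.33 to 1.41 in the 6 B6 CD49a+ libraries, which did not overlap. The F1 libraries overlapped, at -0.49 to 0.03 when circulating and -0.50 to 1.78 when CD49a+.

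Cd247, the zeta chain with its 3 ITAMs, fell in 3 of the 4 CD49a+ comparisons, with wide scatter between libraries. Outside library 3 of F1 blood, it lay between 130.2 and 203 in circulating cells. B6 graft CD49b+ cells had 30.5, 92.8 and 47.4, graft CD49a+ cells had 7.24, 32.9 and 5.49, and recipient skin had 10.8, 172 and 5.05. The graft libraries were all below spleen, and library 2 of recipient skin was within the range of spleen. Pou2f1, whose transcript shares sequence with Cd247, was at its highest of all 30 libraries in that one, at 210 against 10.3 to 39.8 in circulating libraries. F1 graft CD49b+ cells had Cd247 at 51.0, 44.9 and 75.1, graft CD49a+ cells at 56.0, 72.4 and 241, and recipient skin at 26.2, 3.85 and 14.9. Among the F1 skin libraries, library 3 of graft CD49a+ alone exceeded spleen, and Pou2f1 was at 61.3 in it. Cd247 fell 13.2-fold in B6 graft CD49a+ cells (adjusted p = 0.0128, limma), 6.97-fold in B6 recipient skin (0.0341) and 11.2-fold in F1 recipient skin (0.0177). The call in B6 graft CD49a+ cells was lost without library 1 or 3 of that group (0.06 and 0.075), and that in F1 recipient skin without library 2 of that group (0.108) or library 1 or 2 of spleen (0.0534 and 0.05003). The call in B6 recipient skin held only when library 2 of that group was the one left out, and its adjusted p was 0.216 without library 3. The part of Pou2f1 in these values was not tested.

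Fcgr3, the IgG receptor itself, fell in B6 recipient skin. Circulating libraries had 57.6 to 86.4. In B6 it was at 47.2, 64.5 and 52.5 in graft CD49b+ cells, 38.1, 42.5 and 21.5 in graft CD49a+ cells, and 35.8, 5.12 and 0 in recipient skin. The graft CD49b+ group overlapped the circulating range, and the CD49a+ groups did not. F1 values were 49.1, 41.4 and 72.2 in graft CD49b+ cells, 64.3, 47.7 and 36.3 in graft CD49a+ cells, and 107, 16.05 and 3.14 in recipient skin, so that all 3 groups overlapped spleen at 58.3 to 85.8. Fcgr3 fell 12.9-fold in B6 recipient skin (log2 -3.69 ± 0.87, adjusted p = 0.00356, limma), and it stayed called without any single library (adjusted p up to 0.043). In the other 5 comparisons with spleen its log2 values were between -1.93 and -0.48, with adjusted p between 0.124 and 0.768.

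Fcgr3, Fcer1g, Tyrobp and Syk are also transcribed in macrophages and other myeloid cells. The summed signal of all 12 macrophage and monocyte markers was 6.09 to 402 in circulating libraries, 64.4 to 363 in B6 and 95.9 to 409 in F1 graft CD49b+ libraries, 373 to 1188 and 374 to 2759 in graft CD49a+ libraries, and 130 to 296 and 83.9 to 7465 in recipient skin. C1qa, C1qc and Cd14 were at 0 in all 3 B6 recipient skin libraries, and C1qa and C1qb in all 3 of F1. Such zeros were also found in blood and spleen, for 1 to 3 of the 12 markers per group, and in graft groups for 0. The library with the 7465, library 1 of F1 recipient skin, had the highest Fcgr3 of all 30 libraries and the highest Fcer1g and Tyrobp of its group. It was also the richest of its group in pan-leukocyte transcripts, at 24.8% of the circulating level against 15.7% and 10.04%. Library 2 of F1 graft CD49a+, with the 2759, had less Tyrobp and Fcer1g than library 1 of its group and more than library 3. Other lists were high in other skin libraries. In library 2 of F1 graft CD49a+ the neutrophil markers summed to 13548 and the 6 platelet and erythroid markers to 21227. In library 1 of B6 graft CD49a+ the 6 fibroblast markers summed to 4382 and the keratinocyte markers to 2677, and the latter reached 1939 in library 3 of F1 recipient skin. In circulating libraries these sums were at most 624 for neutrophils, 523 for platelets and erythroid cells, 180.1 for fibroblasts and 65.7 for keratinocytes. The part of these cells in the levels of the 9 was not tested. Lck, Fyn, Zap70 and Cd247 are T cell genes as well, and 11 of the 12 T cell markers listed were in the table and summed to 407 to 580.5 in blood and spleen libraries and to 282 to 945 in skin.

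Of the kinases that dock on ITAMs, Zap70 lay below and Syk above the circulating range in F1 graft CD49b+ cells. Zap70 was at 112 to 226 in circulating libraries, and at 63.2, 31.02 and 57.95 in F1 graft CD49b+ cells, below all of them. Its fall from spleen was not called there (log2 -1.62, adjusted p = 0.211, limma), nor on the leukocyte scale (-0.36, 0.753). Lying below was not particular to Zap70, since Tyrobp, Hcst, Lck and Fyn were below every circulating library of their model in all 18 skin libraries. Syk was at 61.6, 81.6 and 86.3 in F1 blood, at 74.3, 80.8 and 82.2 in F1 spleen, and at 669, 176 and 170 in F1 graft CD49b+ cells. Every one of these 3 graft libraries had more Syk than every circulating library of either model, at 61.6 to 118. In F1 graft CD49a+ cells Syk was at 156, 189 and 13.0, and in recipient skin at 78.4, 8.82 and 1.21. B6 graft CD49b+ cells had 25.7, 42.2 and 714, of which the third is the highest Syk value of all 30 libraries. B6 graft CD49a+ cells had 12.2, 18.4 and 30.4 and B6 recipient skin 18.8, 19.9 and 3.73, below the B6 spleen values of 93.9, 92.7 and 113. Of the 18 skin libraries, 6 thus had more Syk than any circulating library of their model and 11 had less. Fcgr3 was above in 1, and the other 7 genes in 0.

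No rise of Syk was called on the deposited scale. In F1 graft CD49b+ cells its log2 value against spleen was 1.77 ± 1.06, a 3.41-fold difference with a 95% interval from -0.40 to 3.94 (adjusted p = 0.288, limma). On the leukocyte scale Syk rose by 3.03 ± 1.04 (adjusted p = 0.0442), on which 16.6% of all genes tested were called higher and 0.081% lower. In B6 graft CD49b+ cells the log2 value was -0.10 ± 1.06 on the deposited scale, and the difference between the models was 1.87 ± 1.499 (95% interval -1.20 to 4.94, adjusted p = 1). Syk fell 8.04-fold in B6 recipient skin (adjusted p = 0.0348, limma), a call that was lost with any single library left out but library 2 of that group (up to 0.168). In the 2 libraries with the highest Syk of the B6 and F1 graft CD49b+ groups, library 3 and library 1, the 12 macrophage and monocyte markers summed to 64.4 and 95.9, the lowest of each group. The 10 neutrophil markers summed to 527 in the B6 library, against 519 and 32.6 in the others of its group, and to 678 in the F1 library, against 895 and 226. The 6 keratinocyte markers summed to 709 in the B6 library, against 131 and 161, and to 12.5 in the F1 library, against 23.9 and 96.9. For the 6 mast cell and basophil markers the sums were 92.4, against 227 and 65.0, and 175, against 164 and 58.1. The 12 NK cell markers summed to 5061 in the B6 library, against 4350 and 8879. In the F1 library they summed to 15932, against 7970 and 8484. The part of other cells in the Syk values was not tested.

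Zap70 itself fell in recipient skin. B6 graft CD49b+ cells had 52.1, 158 and 57.3, graft CD49a+ cells 9.23, 102 and 63.9, and recipient skin 25.6, 142 and 5.94, against 148 to 173 in spleen. Library 2 overlapped spleen in graft CD49b+ cells and lay just under it in recipient skin. F1 graft CD49a+ cells had 76.3, 22.4 and 33.5 and recipient skin 4.44, 22.2 and 45.9, with spleen at 143 to 160.5. Zap70 fell 5.27-fold in B6 recipient skin (adjusted p = 0.0336, limma) and 8.43-fold in F1 (0.0142). The first call was lost without any single library but library 2 of that group (up to 0.26), and the second without library 1 of F1 recipient skin (0.113). Within libraries, the log2 ratio of Syk to Zap70 was -1.18 to -0.37 in the 12 circulating libraries and 1.54 to 3.38 in F1 graft CD49b+ cells, which did not overlap. In B6 graft CD49b+ cells the ratio was -0.99, -1.88 and 3.62.

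**Figure D2:**
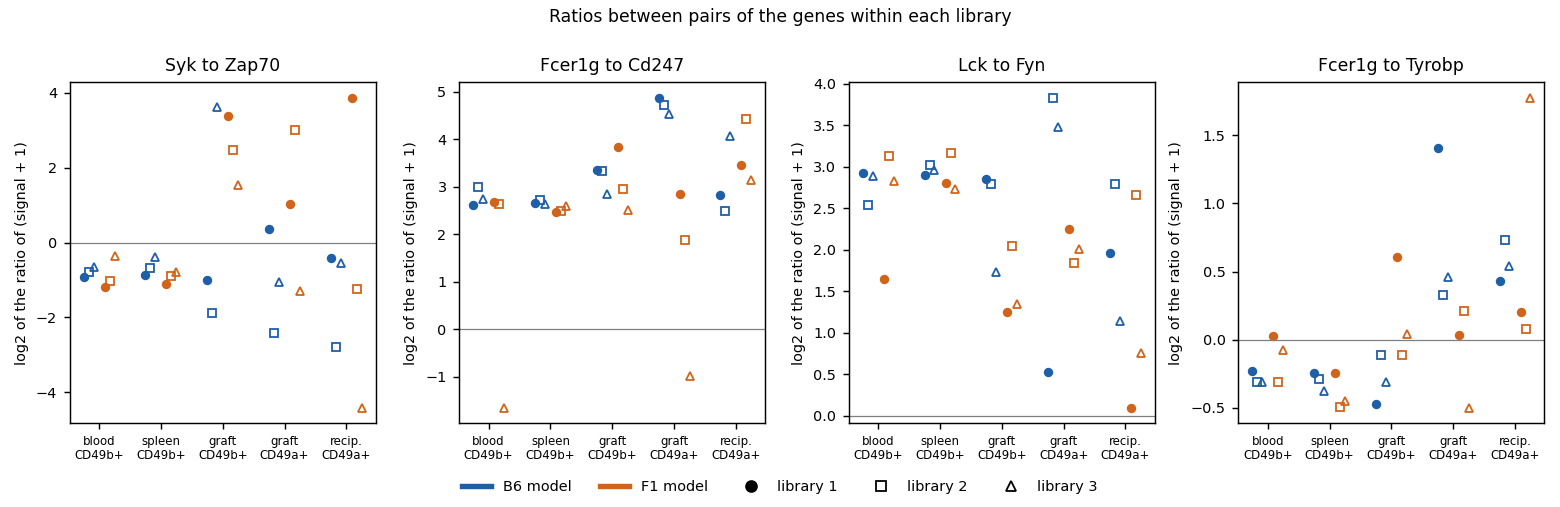
Log2 ratio of signal plus 1 between 4 pairs of genes within each library, by population, B6 in blue and F1 in orange, symbols for library number. The Syk to Zap70 ratio is tight in blood and spleen, at -1.18 to -0.37, and spreads from -4.41 to 3.87 in skin.

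Lck, the Src family kinase with the higher level, had the most calls of the 9. It was at 948, 923 and 813 in B6 blood, 835, 714 and 737 in B6 spleen, 786, 833 and 688 in F1 blood and 878, 847 and 741 in F1 spleen. In B6 it was at 347, 543 and 240.2 in graft CD49b+ cells, 10.4, 375 and 86.9 in graft CD49a+ cells and 164, 338 and 79.1 in recipient skin. All of these lay below all circulating libraries, with library 2 highest each time. F1 graft CD49b+ cells had 186, 119 and 193, graft CD49a+ cells 176, 121 and 101 and recipient skin 58.6, 78.4 and 40.4, also without overlap and with less scatter than in B6. Lck fell 14.1-fold in F1 recipient skin (log2 -3.82 ± 0.71, adjusted p = 0.00131, limma), 6.30-fold in F1 graft CD49a+ cells (0.009) and 5.03-fold in F1 graft CD49b+ cells (0.0313). In B6 it fell 10.5-fold in graft CD49a+ cells (0.00308) and 4.62-fold in recipient skin (0.0219), and in graft CD49b+ cells the log2 value was -1.09 ± 0.71 (0.378). The 3 calls in CD49a+ cells other than B6 recipient skin held without any single library (adjusted p up to 0.0455). The call in F1 graft CD49b+ cells did not hold without any of its 6 libraries (0.0573 to 0.125), and that in B6 recipient skin held only without library 2 of that group or of spleen (up to 0.127 otherwise).

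Fyn, the Src family kinase with the lower level, fell in 3 of the 4 CD49a+ comparisons. Outside library 1 of F1 blood, at 249.7, it was at 87.1 to 158 in circulating cells. B6 graft CD49b+ cells had 47.2, 77.8 and 71.6, graft CD49a+ cells 6.96, 25.4 and 6.88, and recipient skin 41.5, 47.9 and 35.2. Here all 3 B6 graft CD49a+ libraries were below all 3 of recipient skin. F1 graft CD49b+ cells had 77.5, 28.0 and 75.2, graft CD49a+ cells 36.3, 33.1 and 24.4, and recipient skin 54.7, 11.6 and 23.6. All 18 skin libraries were below every circulating library of their model. Fyn fell 8.27-fold in B6 graft CD49a+ cells (log2 -3.05 ± 0.54, adjusted p = 0.00104, limma), 3.45-fold in F1 graft CD49a+ cells (0.018) and 4.25-fold in F1 recipient skin (0.0103), and in B6 recipient skin the log2 value was -1.21 (0.0869). The first call held without any single library (up to 0.0103). The second was lost without library 1 or 3 of F1 spleen or library 3 of the graft group (0.0642, 0.052 and 0.077), and the third without library 2 of F1 recipient skin (0.0841).

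**Figure D3:**
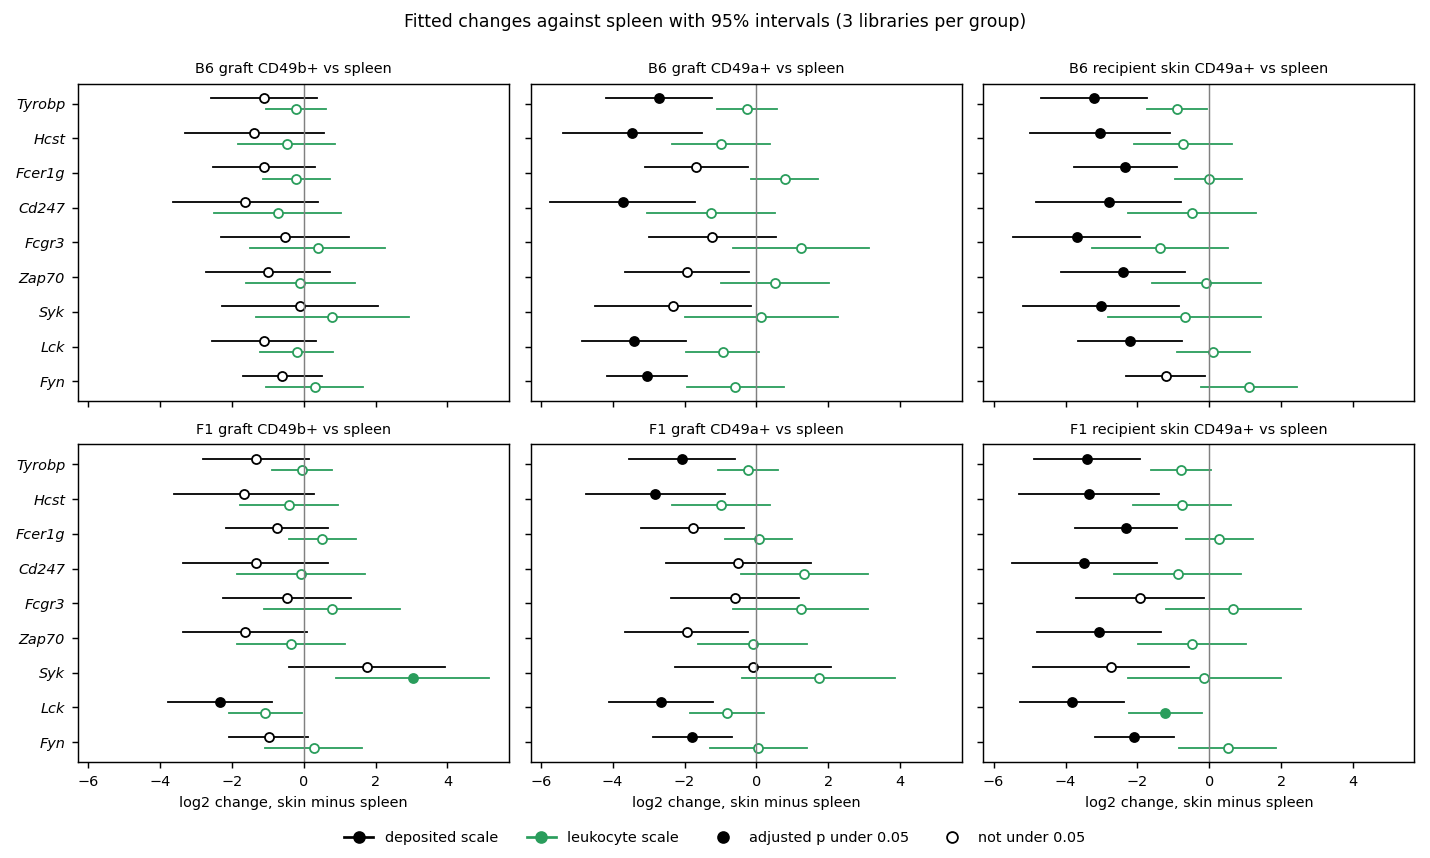
Fitted log2 change of the 9 genes against spleen with 95% intervals in 6 comparisons, on the deposited scale (black) and the leukocyte scale (green), filled where the adjusted p is under 0.05. On the deposited scale most genes lie left of 0, and on the leukocyte scale all but Syk in F1 graft CD49b+ and Lck in F1 recipient skin have open circles.

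On the leukocyte scale, fewer of the 9 were called, and 20 of the 54 fitted changes against spleen had the opposite sign to that on the deposited scale, 4 of them called on the latter. On it the all-gene median against spleen was 1.22, 2.90 and 2.71 in B6 graft CD49b+, graft CD49a+ and recipient skin and 1.52, 2.22 and 2.95 in F1, and the medians of the 9 were -0.19, -0.25, -0.48, -0.06, 0.05 and -0.48 in the same order. Besides the rise of Syk, there was 1 call: Lck fell by 1.22 ± 0.50 in F1 recipient skin, 2.33-fold (adjusted p = 0.0346, limma), where 0.237% of all genes tested were called lower and 63.6% higher. In the 3 B6 comparisons 0 of 9 were called by limma (background 0.00623%, 0.143% and 0.467% lower and 1.52%, 61.9% and 51.5% higher), with 0, 0 and 1 at an unadjusted p under 0.05. In F1 graft CD49a+ cells 0 of 9 were called (background 0.162% lower and 39.4% higher), with 0 at an unadjusted p under 0.05. Tyrobp, which had the unadjusted p under 0.05 in B6 recipient skin, had log2 values of -0.21, -0.25 and -0.89 in the B6 comparisons and of -0.06, -0.25 and -0.80 in those of F1, each with an SE of 0.41 (adjusted p between 0.0672 and 0.931, limma). The 95% interval in B6 recipient skin ran from -1.73 to -0.05. Without the 8 libraries poorest in leukocyte transcripts, B6 graft CD49a+ cells had 0 of 9 called, and B6 recipient skin had 1 of 9, Fcgr3, each of which then had 1 library, assumed to vary like the other groups. In F1 graft CD49a+ cells, with 2 libraries left, 6 of 9 were called lower (Tyrobp, Hcst, Fcer1g, Zap70, Lck and Fyn, adjusted p up to 0.0173, limma). The share of all genes called in that fit is not given here, so these counts have no background beside them.

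The receptors that signal through these adaptors also fell. On the deposited scale, 6 of 6 (Klra4 for Ly49D, Klra8 for Ly49H, Klrc2 for NKG2C, Klrk1 for NKG2D, Klrb1c for NK1.1 and Ncr1 for NKp46) fell in CD49a+ cells of graft and recipient skin in both models, and 2 and 3 fell in graft CD49b+ cells of B6 and F1. On the leukocyte scale 2 and 4 of 6 still fell in CD49a+ cells of B6 graft and recipient skin, 4 and 3 in F1, and 0 and 1 in graft CD49b+ cells. The share of all genes tested called lower on that scale was 0.143%, 0.467%, 0.162%, 0.237%, 0.00623% and 0.081% in the same order, and on the deposited scale 3.77%, 11%, 4.18%, 4.44%, 0.368% and 1.61%. Their medians on that scale, from -2.46 to -0.67, were lower than those of the 9 in each comparison, and the difference between the lists was not tested. Klrb1c and Ncr1 lay below every circulating library of their model in 18 of 18 skin libraries on both scales. Tyrobp did so in 18 of 18 on the deposited and in 11 of 18 on the leukocyte scale, and Fcer1g in 17 and 5. On the leukocyte scale Fcer1g lay above every circulating library of its model in 11 of 18 and Fcgr3 in 13, against 0 for Tyrobp. The share of all genes placed in these ways is not given here. Ncr1 is the NKp46 locus that carries the iCre insertion, on both copies in B6. Its signals were 325 to 410 in B6 and 864 to 1016 in F1 circulating libraries. Ly49H and its partner can be set side by side within libraries: the log2 ratio of Klra8 to Tyrobp was -0.79 to -0.57 in B6 and -1.64 to -1.25 in F1 circulating cells, -1.27, -4.71 and -1.85 in B6 recipient skin and -5.12, -1.82 and -4.89 in F1 recipient skin, with recipient skin below circulating cells in all 3 libraries of each model. In graft CD49b+ cells it was -0.67, -0.55 and -0.30 in B6 and -1.90, -1.72 and -1.64 in F1. Graft CD49a+ cells had -2.23, -0.46 and 0.31 in B6, on both sides of the circulating range, and -2.63, -4.02 and -2.67 in F1, below it.

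**Figure D4:**
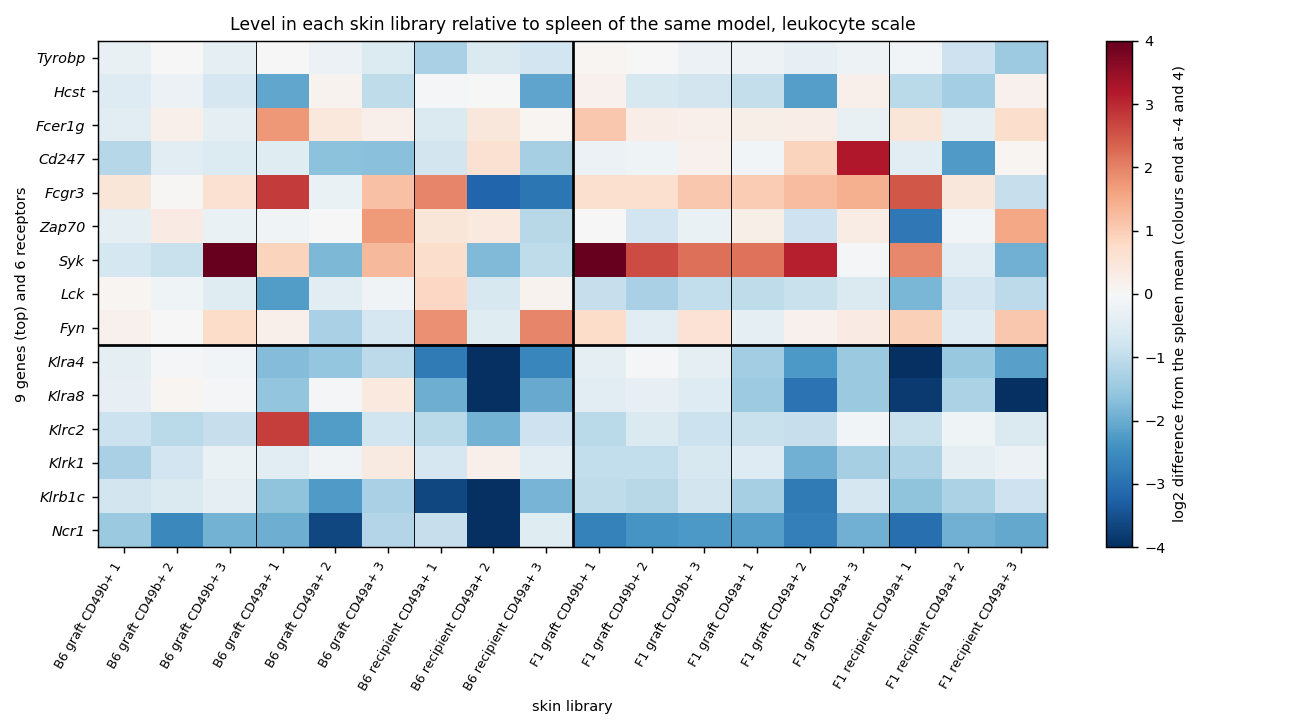
Log2 level of the 9 genes and 6 receptors in each of the 18 skin libraries minus the spleen mean of the same model, on the leukocyte scale (blue lower, red higher, colours ending at -4 and 4). Syk is red in 5 of the 6 F1 graft libraries, and Ncr1 and Klrb1c are blue throughout.

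Within the skin, no difference between populations was called for these genes. Graft CD49a+ against graft CD49b+ cells gave 0 of 9 calls in each model (background 0.0125% in B6 and 0.00623% in F1), with 6 and 0 at an unadjusted p under 0.05. Without library 2 of B6 graft CD49a+, 3 of 9 fell there (Hcst, Lck and Fyn, adjusted p = 0.0442, 0.00411 and 0.00492, limma). That group then held only libraries 1 and 3, at 7.17% and 12.8% of the circulating leukocyte level. With all libraries on the leukocyte scale, 0 of 9 were called in B6, and Fcer1g alone had an unadjusted p under 0.05 (log2 0.99). The share of all genes called in these 2 fits is not given here. Graft against recipient skin CD49a+ cells gave 0 of 9 calls in each model (background 0.224% and 0.0249%), with 2 and 2 at an unadjusted p under 0.05. Those were Fcgr3 (log2 2.47) and Fyn (-1.83) in B6 and Cd247 (2.97) and Syk (2.64) in F1. Without library 2 of B6 graft CD49a+, Fyn was called in that B6 comparison (adjusted p = 0.0311, limma), again with no share of all genes given. The changes from spleen were not called different between the models for any of the 9 (0 of 9 in each population, background 0%, 0.00623% and 0.0125%), with 0, 1 and 0 at an unadjusted p under 0.05. The one was Cd247 in graft CD49a+ cells, at 3.21 ± 1.39.

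Some of the genes that restrain the same signal fell as well. Of 17 negative regulators, 8 fell in graft CD49a+ cells of B6 and 11 in recipient skin, and the F1 counts were 3 and 6, beside 3.77%, 11%, 4.18% and 4.44% of all genes tested. They included Csk, the kinase that shuts off Src family kinases, which fell 5.64-fold in B6 (adjusted p = 0.00435, limma) and 9.09-fold in F1 recipient skin (0.00146), and Dok2, an adaptor that dampens Ras, at 6.96-fold (0.00111) and 10.8-fold (0.000417). Dgka, which removes diacylglycerol, fell 9.11-fold (0.000517) and 3.23-fold (0.0443). In graft CD49b+ cells 0 of the 17 fell in B6 and 4 in F1 (Cbl, Dok2, Sla and Dgka). Of all genes tested, 0.368% and 1.61% were called lower there. None of the 17 rose on the deposited scale in these 6 comparisons, in which 3.7% to 18.5% of all genes tested were called higher. On the leukocyte scale 0 to 3 of the 17 rose and 1 fell in 1 comparison. Of all genes tested, 1.52% to 63.6% were called higher on that scale and 0.00623% to 0.467% lower. The medians of the 17 on the deposited scale were -0.82 to -2.05 in B6 and -1.17 to -1.57 in F1. On the leukocyte scale they were between 0.05 and 1.03.

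On the deposited scale, a minority of the downstream adaptors and enzymes were called. Of 15 adaptors, 0, 5 and 4 fell in B6 graft CD49b+, graft CD49a+ and recipient skin and 1, 2 and 2 in F1, where 0.368%, 3.77% and 11% and 1.61%, 4.18% and 4.44% of all genes tested fell. Lat2, a scaffold related to LAT, fell 6.54-fold in B6 graft CD49a+ cells (adjusted p = 0.0146, limma) and 6.37-fold in F1 recipient skin (0.0148). Gab3, a docking protein, fell 6.48-fold (0.00091) and 5.601-fold (0.00135) in the same 2 groups. Of 16 enzymes and effectors, 0, 3 and 2 fell in B6, the last of these near the share of all genes, and 2, 2 and 5 in F1. Vav3, a guanine nucleotide exchange factor, rose in B6 recipient skin (5.09-fold, 0.00825) and F1 graft CD49a+ cells (4.53-fold, 0.0146). It was the only one of the 16 to rise there, a smaller share than the 17.9% and 18.5% of all genes tested called higher. Rasgrp1, a Ras activator, fell in 4 of the 6 comparisons, most in F1 recipient skin at 12.6-fold (0.00161), and Pik3ap1, which links receptors to phosphatidylinositol 3-kinase, fell 17.5-fold in B6 recipient skin (0.000892). On the leukocyte scale 0 of the 15 adaptors were lower and up to 5 were higher, and of the 16 enzymes up to 9 were higher and 1 was lower in 1 comparison. The 5 of 15 and 9 of 16 were in F1 recipient skin, where 63.6% of all genes tested were called higher, so these shares were below that of all genes. Genes near 0 that the shift itself raises may be part of that 63.6%, and their number is not given here.

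Other members of the Src and Tec families included both falls and rises. Of 10, Txk, a Tec kinase of T and NK cells, fell 11.6-fold in B6 graft CD49a+ cells (adjusted p = 0.00865, limma) and 6.86-fold in B6 recipient skin (0.0204), and Blk, a B cell kinase, fell in the latter (0.0379). Of all genes tested, 3.77% and 11% were called lower in these 2 comparisons. Yes1, a Src kinase of many tissues, rose in CD49a+ cells of both sites and models, 5.32-fold to 9.58-fold, from group means of 0.488 and 0.782 in B6 and F1 spleen to 9.80 to 15.6, although library 2 of B6 recipient skin was at 0. Rises were common there: 12.5% and 17.9% of all genes tested were called higher in B6 graft CD49a+ cells and recipient skin. In F1 the shares were 18.5% and 11.3%. Of the 5 other ITAM chains, Cd3d, a chain of the T cell receptor complex, rose in all 3 F1 skin populations, to means of 42.6, 80.0 and 50.9 from 7.73 in spleen (adjusted p = 0.028, 0.00283 and 0.0231, limma). In the same order, 10.6%, 18.5% and 11.3% of all genes tested were called higher. Cd3e and Cd3g, of the same complex, were not called in either F1 graft population. Cd79a and Cd79b, the B cell receptor chains, fell in the 3 B6 skin populations (graft CD49b+, graft CD49a+ and recipient skin), where 0.368%, 3.77% and 11% of all genes tested were called lower. The 6 B cell markers summed to 211 to 1120 in B6 spleen and to 55.1 to 258 in the B6 skin libraries. The part of B and T cells in these values was not tested.

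Across the 30 libraries the 9 genes moved together to different degrees. Pearson's r of log2 values was highest for Tyrobp with Fcer1g (0.95) and Hcst with Lck (0.93), and lowest for Zap70 with Syk (0.36). These are descriptions over libraries that share the difference in leukocyte content between circulating and skin samples. Among 3431 named genes with a mean signal of at least 50, the closest to Tyrobp were Cyba (0.97) and Coro1a (0.97), to Hcst Itgal (0.98) and Hmha1 (0.97), to Fcer1g Tyrobp itself and Capzb (0.95), and to Lck Tbc1d10c (0.96) and Cd48 (0.95). Zap70 was nearest to Leprotl1 (0.93) and Lat2 (0.92), and Fyn to Dennd1c (0.88) and Ptpn18 (0.88). The best matches were weaker for Cd247, with Arhgap9 (0.85) and Coro1a (0.83), for Fcgr3, with Pik3ap1 (0.83) and Gsdmd (0.83), and for Syk, with Satb1 (0.75) and Gpr65 (0.72).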

How the data were processed

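The libraries hold total RNA of sorted NKp46-GFP+ cells. The deposited values are signals per gene, normalized by the authors with DESeq2 after quantification with Salmon on GRCm38 (mm10), per the submitters' processing notes. Tool versions, the strand setting and read depths: not given in the sources used here. Of 30616 entries, 30587 were used: 27 symbols turned into dates, 1 entry with no name and 1 with a value that is not a number were left out, as were 2 numeric columns that name no library. The 16045 genes that reached a signal of 10 in 3 or more libraries were fitted on log2(signal + 1), on which scale fold changes of low genes are understated. limma 3.58.1 in R 4.3.3 was used, with 1 mean per group over all 30 libraries, a variance trend and robust moderation, and Benjamini-Hochberg adjustment over all genes tested at 0.05. The procedure was tested on simulated data with independent noise for each gene, which lacked the shared shift in leukocyte content between libraries. Figures and sums used Python 3.11.15. The 9 genes and all lists were chosen with earlier results of these data known. Named pathway genes are called ones, and the genes most alike were ranked by Pearson's r among named genes with a mean signal of at least 50. Library numbers were taken to pair samples where every same-number correlation of deviations exceeded 0.1. That held for B6 graft against recipient skin CD49a+ cells alone (r = 0.14, 0.40 and 0.15), from the data and not from the labels, and 0 of 9 were called there with or without the block. Alternatives were a pseudocount of 10, no filter, quantile normalization, the leukocyte scale, a replicate block, fits of the compared groups alone, library weights and leaving out each library. Equal totals outside the 12 most abundant entries and leaving out the 8 libraries poorest in leukocyte transcripts were added after seeing the data. A result among the other kinases is not reported here.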

Additional observations from a re-analysis of the deposited data

How the results depend on the processing

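The pseudocount of 10, the absence of a filter and equal totals outside the 12 most abundant entries left every count of called genes within 1.5 times its value. On the leukocyte scale the count fell from 5 to 0 in B6 graft CD49a+ cells, from 8 to 0 in B6 recipient skin, from 4 to 0 in F1 graft CD49a+ cells and from 7 to 1 in F1 recipient skin. Of 54 changes against spleen, 20 had the opposite sign on it, and those called on the deposited scale were Lck in B6 recipient skin (0.11) and, in F1, Fyn in graft CD49a+ cells (0.0476), Fcer1g in recipient skin (0.28) and Fyn in recipient skin (0.51). Without the 8 libraries poorest in leukocyte transcripts, B6 graft CD49a+ cells had 0 calls, B6 recipient skin 1, B6 graft against recipient skin 1 (Fcgr3, 2.83) and F1 graft CD49a+ cells 6 in place of 4, and Cd247 changed sign in B6 recipient skin (0.11). F1 recipient skin could not be fitted there, since no library was left, and the share of all genes called in that fit is not given. Fits of the compared groups alone gave 3 calls in B6 graft CD49a+ cells, 0 in B6 recipient skin, 5 in F1 graft CD49b+ cells and 2 for F1 against B6 circulating cells (Tyrobp and Fcer1g). Library weights gave 3 calls in B6 graft CD49b+ cells (Tyrobp, Fcer1g and Lck) and 4 in F1 graft CD49b+ cells. Quantile normalization gave 0 in F1 graft CD49b+ and 2 in F1 graft CD49a+ cells. With the replicate block, B6 graft CD49a+ against graft CD49b+ cells had 1 call in place of 0 (Fyn, -2.46), and it moved no other count by over 1.5 times. The same-number correlations there were 0.09, 0.38 and 0.08, and the labels do not say whether those libraries share an animal. The share of all genes called is not given here for groups alone, library weights, quantile normalization or the block. Without it, these counts do not show whether a change concerns the genes described here or genes at large. The cause of these changes in count was not tested. Leaving out 1 library at a time gave 2 to 7 calls in B6 graft CD49a+ cells (2 without library 1 or 3 of that group), 2 to 8 in B6 recipient skin (2 without library 1 or 3), 0 in F1 graft CD49b+ cells, 1 to 5 in F1 graft CD49a+ cells and 3 to 8 in F1 recipient skin (3 without library 2). It gave 0 to 3 in B6 graft CD49a+ against graft CD49b+ cells, 0 to 1 in B6 graft against recipient skin, and 0 in the other comparisons. For the fits with 1 library left out, the share of all genes called is not given here either, so the same limit holds. With the depth unknown, the counting error behind low signals could not be given.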
